A study of Mus musculus with 24 samples.

Results

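The collagen genes of the mouse were followed across stromal cell populations of the gut. They were taken as every gene whose symbol has the form Col, a number, a and a number, and 44 of the 54418 genes in the count table fit. By the structure of their products, 11 are fibrillar collagens, 8 are collagens of basement membranes (type IV, type XV and type XVIII) and 25 belong to other classes. RNA was sequenced from stromal cells that lacked the epithelial protein Epcam and the leukocyte protein CD45, taken from the colon or the small intestine of mice aged 8 to 12 weeks on a C57Bl6 background. The cells were divided by CD31, a surface protein of endothelial cells, and by a GFP transgene that reports Rspo3, the gene of R-spondin 3, a secreted enhancer of Wnt signalling. The 8 groups, each of 3 libraries, were CD31+ Rspo3+, CD31+ Rspo3-, CD31- Rspo3+ and CD31- Rspo3- cells of the colon and the same populations of the small intestine. The title of the study names lymphatic endothelial cells and Rspo3+ Grem1+ fibroblasts as its subjects. The labels do not describe the transgene's construct or say if a group's 3 libraries are separate animals. The p-values below therefore reflect variation among libraries, and that variation may be technical.

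Collagens are secreted or membrane proteins in which chains wind into a triple helix. Fibrillar collagens (types I, III and V among them) assemble into the cables that give connective tissue its tensile strength and are made in the gut mostly by fibroblasts. Type IV collagen forms the sheet-like network of basement membranes under epithelium and around vessels, and types XV and XVIII attach to these membranes, with endostatin being a fragment of type XVIII. Fibril-associated collagens (types XII and XIV among them) bind to fibrils, type VI builds beaded filaments around cells, and types XIII and XXIII are membrane-spanning collagens.

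Several collagen genes lie beside one another in the genome. Of the pairs named here, the levels of Col4a1 and Col4a2 are compared below. Col4a1 and Col4a2, which encode the common chains of type IV collagen, lie head to head on chromosome 8 (GRCm38), and their annotated spans overlap by 22 bases. Col4a4 and Col4a3 lie head to head 71 bases apart on chromosome 1, and Col4a6 and Col4a5 1308 bases apart on chromosome X. Promoter windows from RefSeq (GRCm38.p6), running from 250 bases before to 50 bases after each annotated start, were found for 35 members (38 windows). The windows of Col4a1 and Col4a2 share 78 bases, and both are shown 5′ to 3′ on the strand of their gene because the pair shares 1 region. Capitals mark the letters CCAAT (the CCAAT box) and GGGCGG (the GC box) or their reverse complements ATTGG and CCGCCC, and no matches overlap in the windows shown.
Col4a1, chr8:11312777-11313076, minus strand: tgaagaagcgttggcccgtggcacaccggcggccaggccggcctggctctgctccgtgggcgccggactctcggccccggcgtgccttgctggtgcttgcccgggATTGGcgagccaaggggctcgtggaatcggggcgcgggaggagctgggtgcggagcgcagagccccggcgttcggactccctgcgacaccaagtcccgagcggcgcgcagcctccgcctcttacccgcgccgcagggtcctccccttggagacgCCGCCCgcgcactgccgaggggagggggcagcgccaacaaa
Col4a2, chr8:11312555-11312854, plus strand: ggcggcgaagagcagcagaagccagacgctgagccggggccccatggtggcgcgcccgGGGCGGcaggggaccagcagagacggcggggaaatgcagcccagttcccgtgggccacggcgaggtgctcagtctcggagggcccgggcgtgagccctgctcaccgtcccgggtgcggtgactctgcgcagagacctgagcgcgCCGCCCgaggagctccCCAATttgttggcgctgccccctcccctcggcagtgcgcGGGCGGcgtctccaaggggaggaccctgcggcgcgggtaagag
Col1a2 and Col3a1, the fibrillar genes with the smallest p-values in small intestinal CD31- cells, and Col23a1, the member with the smallest p-value between Rspo3+ and Rspo3- CD31+ cells, are shown for comparison.
Col1a2, chr6:4505368-4505667, plus strand: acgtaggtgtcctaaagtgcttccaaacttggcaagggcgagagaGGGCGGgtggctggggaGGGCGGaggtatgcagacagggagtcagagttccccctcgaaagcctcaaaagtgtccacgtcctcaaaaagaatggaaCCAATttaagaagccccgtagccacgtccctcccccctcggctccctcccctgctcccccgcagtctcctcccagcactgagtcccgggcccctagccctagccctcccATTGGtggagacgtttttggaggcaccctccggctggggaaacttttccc
Col3a1, chr1:45311288-45311587, plus strand: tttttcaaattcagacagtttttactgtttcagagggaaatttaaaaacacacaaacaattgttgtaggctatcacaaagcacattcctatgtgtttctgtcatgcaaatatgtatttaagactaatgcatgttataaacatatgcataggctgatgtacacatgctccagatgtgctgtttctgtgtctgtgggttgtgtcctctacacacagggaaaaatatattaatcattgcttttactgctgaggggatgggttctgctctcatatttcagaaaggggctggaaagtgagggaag
Col23a1, chr11:51289670-51289969, plus strand: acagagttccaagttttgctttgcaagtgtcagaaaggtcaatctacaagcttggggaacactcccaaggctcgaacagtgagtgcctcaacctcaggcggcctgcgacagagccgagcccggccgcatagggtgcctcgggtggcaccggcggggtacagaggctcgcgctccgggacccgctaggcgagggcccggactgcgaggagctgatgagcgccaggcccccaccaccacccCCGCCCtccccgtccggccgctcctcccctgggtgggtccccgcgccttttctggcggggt
Col1a2 held 2 matches of each motif and Col3a1 held none of either. Any link between matches and levels was not tested. CCAAT in either direction occurred in 13 of the 38 collagen windows and in 37.4% of 32851 windows of all genes. GGGCGG occurred in 23 of the 38 and in 35.7% of all windows. A match is a run of letters and not a measured binding site.

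Estimated counts per library summed to 8462041 to 29214487. Levels are given in CPM (TMM-scaled counts, relative to the library total) for comparisons between groups and in TPM (per transcript length) for comparisons between genes. Pecam1, which encodes CD31, had 347 to 1486 CPM in the CD31+ libraries, against 8.18 to 43.9 CPM in the CD31- libraries. Rspo3 had 139 to 450 CPM in Rspo3+ libraries, against 11.1 to 24.1 CPM in Rspo3- libraries. Epcam, an epithelial marker, had 594 to 1069 CPM in small intestinal and 101 to 326 CPM in colon CD31- Rspo3- libraries, and at most 65.6 CPM in the other groups apart from library 3 of colon CD31- Rspo3+ cells. Besides, 3 colon libraries stood apart from the others of their group. Library 3 of colon CD31+ Rspo3- cells had 2467 CPM of Dcn, a fibroblast proteoglycan, against 421 and 471 CPM in its fellows. Library 1 of colon CD31+ Rspo3+ cells had 1730 CPM of Dcn, against 566 and 587 CPM in its fellows. Library 3 of colon CD31- Rspo3+ cells had 197 CPM of Epcam and 72.8 CPM of Ptprc, which encodes CD45, against at most 15.3 and 3.71 CPM in its fellows. Values that moved without 1 of these 3 libraries are given beside the results they touch.

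The CD31- populations carried far more collagen RNA than the CD31+ populations, and it was mostly fibrillar. In summed TPM over all 44 genes, CD31+ Rspo3+ cells of the colon had 1489 ± 479 TPM, CD31+ Rspo3- cells 1968 ± 1146, CD31- Rspo3+ cells 8861 ± 2921 and CD31- Rspo3- cells 9464 ± 2626 (SD, n = 3 each). Small intestinal sums were 1053 ± 285 TPM in CD31+ Rspo3+ cells, 917 ± 272 in CD31+ Rspo3- cells, 17843 ± 3267 in CD31- Rspo3+ cells and 4941 ± 1173 in CD31- Rspo3- cells. The sum of colon CD31+ Rspo3- cells was 1306 TPM over libraries 1 and 2, with 3291 TPM in library 3. Its place above colon CD31+ Rspo3+ cells therefore rested on that library. The sum of colon CD31+ Rspo3+ cells was 1307 TPM without library 1, which had 1852 TPM. For colon CD31- Rspo3+ cells the sum was 10544 TPM without library 3, which had 5496 TPM. The place of that group below colon CD31- Rspo3- cells therefore rested on its library 3. The small intestinal CD31- Rspo3+ libraries (14082 to 19974 TPM) lay above all other libraries, and collagen genes held 1.78 ± 0.33% of their total TPM. These sums were not tested, since 3 libraries against 3 cannot go below a two-sided exact permutation p of 0.10.

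**Figure D1:**
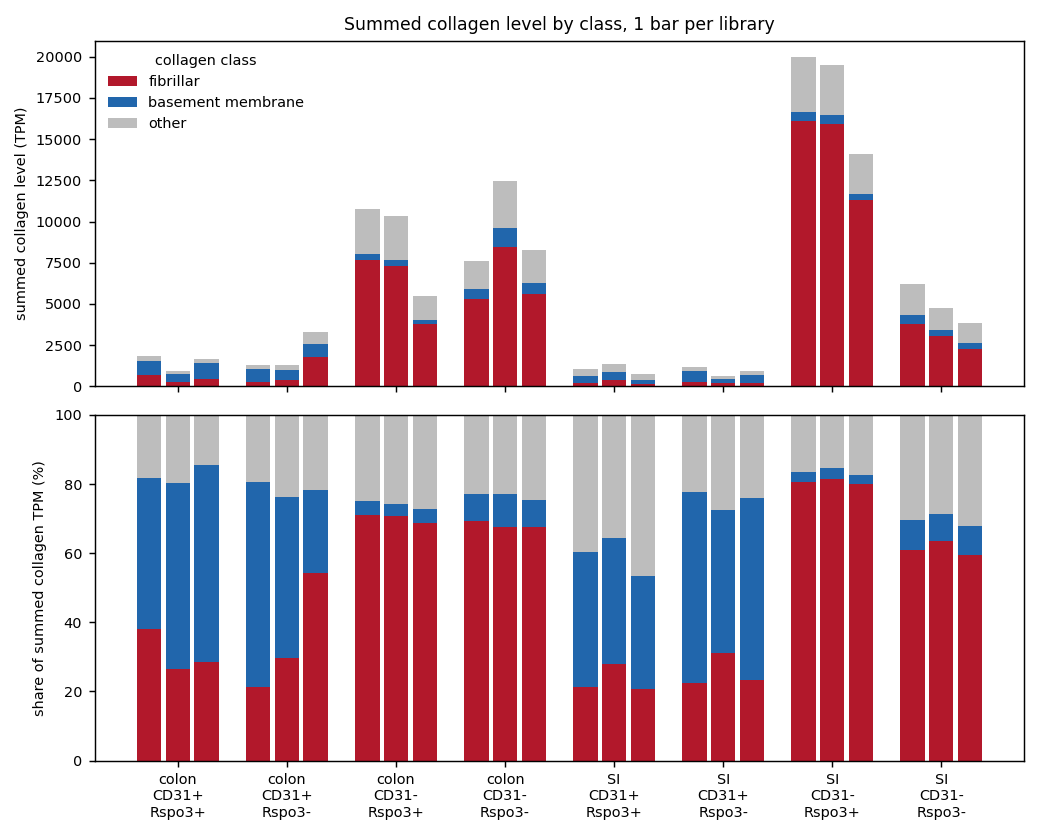
Summed TPM of the collagen genes (top) and the share of each class in it (bottom), 1 bar per library, for the 8 groups (SI, small intestine). The 3 small intestinal CD31- Rspo3+ bars reach 14082 to 19974 TPM, and the basement membrane share is large in every CD31+ bar and small in every CD31- bar.

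Fibrillar genes made up 70.3 ± 1.29% of the collagen TPM in colon CD31- Rspo3+ cells and 68.2 ± 1.05% in colon CD31- Rspo3- cells, and 80.8 ± 0.75% and 61.3 ± 2.05% in small intestinal CD31- Rspo3+ and CD31- Rspo3- cells (SD, n = 3). In CD31+ cells that share was 31.1 ± 6.16% (colon Rspo3+), 35.1 ± 17.1% (colon Rspo3-), 23.3 ± 4.09% (small intestine Rspo3+) and 25.7 ± 4.71% (small intestine Rspo3-). The wide spread of colon CD31+ Rspo3- cells came with library 3, and the fibrillar share was 25.6% over its 2 fellows, with a basement membrane share of 52.9%. Without library 1, colon CD31+ Rspo3+ cells had a fibrillar share of 27.6% and a basement membrane share of 55.3%. Basement membrane genes held 51.4 ± 6.84%, 43.2 ± 17.9%, 36.1 ± 3.12% and 49.6 ± 7.39% in the same 4 CD31+ groups, against 3.80 ± 0.31%, 8.38 ± 0.97%, 2.78 ± 0.21% and 8.32 ± 0.37% in their CD31- counterparts. No CD31- library reached the lowest CD31+ basement membrane share of 23.9%. The leading gene by TPM was Col3a1 in all 4 CD31- groups (1936 to 9333 TPM on average). Among CD31+ groups it was Col18a1 in colon Rspo3+ cells (331 TPM), Col3a1 in colon Rspo3- cells (543 TPM), Col23a1 in small intestinal Rspo3+ cells (297 TPM) and Col4a1 in small intestinal Rspo3- cells (265 TPM). The lead of Col3a1 in colon CD31+ Rspo3- cells rested on library 3. Col3a1 had 175, 259 and 1193 TPM in libraries 1, 2 and 3 there, against 428, 338 and 436 TPM of Col4a1.

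The first comparison asked how endothelial-gated cells differ from the rest of the stroma. Among the 42 members that passed the filter on low counts, CD31+ cells were higher than CD31- cells for 3 and lower for 22 among colon Rspo3+ cells (33.1% of all 19050 genes tested were called in either direction, 14.9% higher and 18.2% lower). For colon Rspo3- cells 2 were higher and 28 lower (32.5% of all genes, 16.1% higher and 16.4% lower). In the small intestine 1 was higher and 26 lower among Rspo3+ cells (36.5% of all genes, 16.9% and 19.6%), and 3 were higher and 23 lower among Rspo3- cells (41.6%, 20.1% and 21.6%). Among colon Rspo3+ cells 19 were lower without library 3 of CD31- cells, and 2 were higher and 19 lower without library 1 of CD31+ cells. Among colon Rspo3- cells 26 were lower without library 3 of CD31+ cells. Over every library left out in turn, the counts lower were 18 to 20 (colon Rspo3+) and 21 to 27 (colon Rspo3-). In the small intestine they were 25 to 26 (Rspo3+) and 22 to 24 (Rspo3-). A call is an adjusted p under 0.05 in edgeR's quasi-likelihood test with Benjamini-Hochberg adjustment over all genes tested. The median log2 fold change of the members was -2.12 to -3.75 in these comparisons, against -0.01 to -0.07 for all genes tested. In bulk libraries fewer cells of a type and less RNA per cell cannot be told apart.

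Col1a1, Col1a2, Col3a1, Col5a1, Col5a2 and Col5a3, the chains of types I, III and V, were lower in CD31+ cells in all 4 comparisons. Col3a1 had 1361, 617 and 984 CPM in colon CD31+ Rspo3+ cells, against 18865, 18720 and 10625 CPM in CD31- Rspo3+ cells. Small intestinal libraries held 437, 764 and 309 CPM in CD31+ Rspo3+ cells, against 39019, 39570 and 27499 CPM in CD31- Rspo3+ cells. The groups did not overlap, and the log2 fold changes were -4.03 ± 0.59 (SE, edgeR adjusted p = 1.93e-05) in the colon and -6.13 ± 0.65 (edgeR adjusted p = 2.37e-07) in the small intestine. Col5a1 had 80.7, 41.7 and 54.5 CPM in colon CD31+ Rspo3+ cells, against 1050, 1131 and 731 CPM in CD31- Rspo3+ cells, a log2 fold change of -4.04 ± 0.54 (edgeR adjusted p = 6.86e-06). The chains of type VI, Col6a1, Col6a2 and Col6a3, were likewise lower in all 4, as for Col6a1 with 72.0, 146 and 65.3 CPM in small intestinal CD31+ Rspo3+ cells, against 3492, 3331 and 2982 CPM in CD31- Rspo3+ cells (log2 fold change -5.11 ± 0.55, edgeR adjusted p = 3.17e-07). Col6a3 had 19.6, 31.6 and 19.3 CPM in small intestinal CD31+ Rspo3+ cells, against 1146, 906 and 657 CPM in CD31- Rspo3+ cells. The fibril-associated Col12a1, Col14a1 and Col16a1 and the type VI chains Col6a4 and Col6a6 were the other members lower in all 4 comparisons. Col6a6 was scarce, averaging at most 0.96 CPM in any group. It had 1.27, 0.13 and 0.13 CPM in colon CD31- Rspo3+ cells, against 0 in CD31+ Rspo3+ cells. The call of Col6a4 in colon Rspo3+ cells (edgeR adjusted p = 0.0481) was lost under 9 of 13 alternatives (adjusted p = 0.0726 to 0.177), among them leaving out library 1 or 2 of CD31+ cells or any library of CD31- cells. The fibroblast markers moved with these genes: 7 or 8 of 8 were lower in CD31+ cells in each comparison, and their sum was 584 to 4108 CPM in CD31+ libraries, against 7556 to 60913 CPM in CD31- libraries. Their part in the fibrillar reads of CD31+ cells was not tested.

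**Figure D2:**
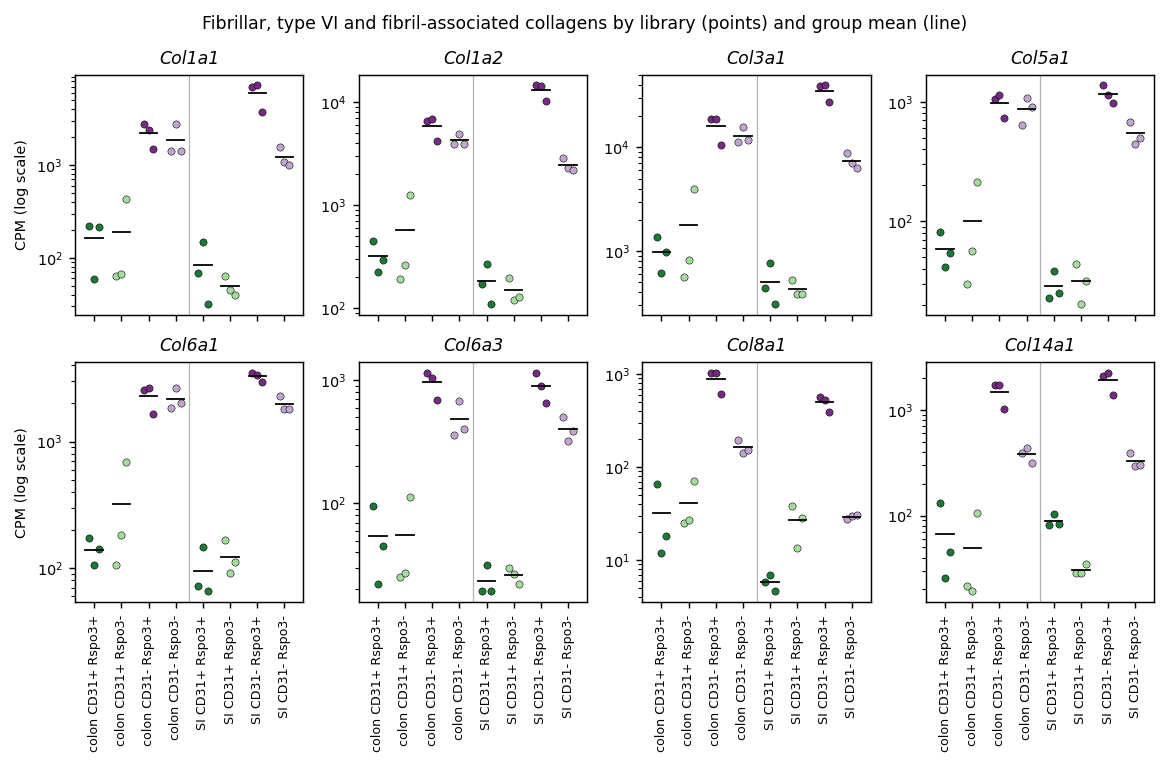
CPM (log scale) of 8 fibrillar, type VI, short-chain and fibril-associated collagens in the 8 groups (SI, small intestine), 1 point per library, with lines at the group means. All CD31- libraries lie above all CD31+ libraries for Col3a1 and Col6a1, and library 3 of colon CD31+ Rspo3- cells is the highest CD31+ point for Col1a1, Col1a2 and Col3a1.

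Col4a1 and Col4a2, the common chains of type IV collagen, did not share this pattern. Of the 8 basement membrane genes, 6 were lower and 0 higher in CD31+ cells among small intestinal Rspo3+ cells. In each other comparison of the gates 3 were lower and 1 was higher. Col4a5 had 9.45, 8.71 and 4.39 CPM in small intestinal CD31+ Rspo3+ cells, against 61.0, 74.2 and 45.6 CPM in CD31- Rspo3+ cells. Its colon Rspo3+ libraries overlapped (17.9, 14.5 and 36.2 CPM, against 46.5, 31.8 and 26.6 CPM). Col4a1 ranked among the 2 highest collagens by TPM in 4 of the 4 CD31+ groups, and its group means lay between 700.3 CPM (small intestinal CD31+ Rspo3+ cells) and 1426 CPM (colon CD31+ Rspo3- cells). Its libraries were 1136, 694 and 1551 CPM in colon CD31+ Rspo3+ cells and 1523, 1165 and 1589 CPM in colon CD31+ Rspo3- cells, with 959, 828 and 566 CPM in colon CD31- Rspo3+ cells and 914, 1832 and 1070 CPM in colon CD31- Rspo3- cells. Small intestinal values were 780, 936 and 385 CPM in CD31+ Rspo3+ cells and 1336, 404 and 816 CPM in CD31+ Rspo3- cells, with 1130, 1327 and 703 CPM in CD31- Rspo3+ cells and 970, 618 and 716 CPM in CD31- Rspo3- cells. Neighbouring groups in the order of means overlapped, and Col4a1 passed in none of the 12 pairwise comparisons (log2 fold changes -0.70 to 0.74). Col4a2 had group means of 273.3 to 977.8 CPM and was lower in small intestinal CD31+ Rspo3+ cells (298, 344 and 177 CPM) than in CD31- Rspo3+ cells (716, 744 and 412 CPM), by a log2 fold change of -1.19 ± 0.36 (edgeR adjusted p = 0.0122). That call was lost in limma on log2(TPM + 1) (adjusted p = 0.0533), and in edgeR without library 2 of CD31- Rspo3+ cells (edgeR adjusted p = 0.0514) or library 3 of CD31+ Rspo3+ cells (0.0715).

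The ratio of Col4a1 to Col4a2 TPM differed between Rspo3+ and Rspo3- endothelial-gated cells. It was 2.63 ± 0.22 in colon CD31+ Rspo3+ cells and 1.77 ± 0.12 in colon CD31+ Rspo3- cells, and 2.95 ± 0.09 and 2.09 ± 0.14 in small intestinal CD31+ Rspo3+ and CD31+ Rspo3- cells (SD, n = 3). The libraries of the groups did not overlap in either tissue, and the ratio was not tested. Over all 24 libraries it ranged from 1.64 to 3.06. The ratio of Col6a1 to Col6a2, both chains of type VI, ran from 1.08 to 1.57 (median 1.31), and that of Col3a1 to Col1a2, chains of different collagens, from 2.70 to 3.70 (median 3.14). Col1a2 to Col1a1, whose products form type I collagen, ranged from 1.55 to 4.43 (median 3.00).

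The next comparison set Rspo3+ against Rspo3- cells among CD31- cells, the gate that holds the fibroblasts. In the small intestine 7 of the 42 members rose in Rspo3+ cells and 8 fell (30.4% of all genes were called, 16.1% higher and 14.3% lower), so that the members' share in either direction, 35.7%, was near that of all genes. The 4 fibrillar genes that rose were Col1a1, Col1a2, Col3a1 and Col5a2, and the median of the 10 fibrillar genes tested was 1.18, against 0.11 for all genes. In the colon 3 members rose and 14 fell (9.14% of all genes, 4.80% and 4.34%), and no fibrillar gene rose.

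Col1a2, the second chain of type I collagen, had 14464, 14429 and 10155 CPM in small intestinal CD31- Rspo3+ cells, against 2878, 2294 and 2184 CPM in CD31- Rspo3- cells, with no overlap and a log2 fold change of 2.41 ± 0.52 (edgeR adjusted p = 0.00154). Col3a1 had the 3 small intestinal CD31- Rspo3+ values given above, against 8878, 6993 and 6363 CPM in CD31- Rspo3- cells (2.25 ± 0.54, edgeR adjusted p = 0.00343). Col1a1 had 6999, 7232 and 3751 CPM in CD31- Rspo3+ cells, against 1581, 1072 and 1005 CPM in CD31- Rspo3- cells (2.30 ± 0.67, edgeR adjusted p = 0.0131). The call of Col1a1 was lost without library 2 or library 3 of CD31- Rspo3- cells (edgeR adjusted p = 0.0556 and 0.0596). Col5a2, a chain of type V collagen that sets fibril width, rose by 1.57 ± 0.39 (edgeR adjusted p = 0.00449). Col5a1, its partner chain, had 1369, 1136 and 975 CPM in CD31- Rspo3+ cells, against 683, 446 and 499 CPM in CD31- Rspo3- cells, and did not pass although the groups did not overlap (1.10 ± 0.48, edgeR adjusted p = 0.094).

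In the colon the same genes did not pass. Col3a1 had 18865, 18720 and 10625 CPM in CD31- Rspo3+ cells, against 11263, 15601 and 11880 CPM in CD31- Rspo3- cells, a log2 fold change of 0.32 ± 0.52 (edgeR adjusted p = 0.788) with overlapping libraries. Col1a2 had 6530, 6842 and 4180 CPM in CD31- Rspo3+ cells, against 3879, 4949 and 3946 CPM in CD31- Rspo3- cells (0.46 ± 0.50, edgeR adjusted p = 0.651), and Col1a1 had 2797, 2408 and 1483 CPM in CD31- Rspo3+ cells, against 1411, 2801 and 1404 CPM in CD31- Rspo3- cells (0.25 ± 0.64, edgeR adjusted p = 0.872). The lowest Rspo3+ value of each gene was that of library 3, the library with Epcam and Ptprc counts. Without it the log2 fold changes were 0.54 for Col3a1, 0.65 for Col1a2 and 0.47 for Col1a1 (edgeR adjusted p = 0.634, 0.533 and 0.765). The test of the difference between the tissues did not pass for these genes in edgeR's model of all groups, with colon minus small intestine at -1.95 ± 0.71 for Col1a2 (edgeR adjusted p = 0.0971), -1.94 ± 0.74 for Col3a1 (edgeR adjusted p = 0.114) and -2.04 ± 0.92 for Col1a1 (edgeR adjusted p = 0.183). Fitted on only the 4 groups compared, it passed for Col1a2, Col3a1 and Col1a1 (edgeR adjusted p = 0.00499, 0.0112 and 0.0304). Over all groups it passed for Col1a2 in DESeq2 (adjusted p = 0.0447) and for Col1a2 and Col3a1 in limma on log2(TPM + 1) (adjusted p = 0.029 and 0.0278).

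Col8a1, Col14a1 and Col4a3, none of them fibrillar, rose in Rspo3+ CD31- cells of both tissues. Col8a1, a short-chain collagen that forms networks in vessel walls and under some endothelia, had 1025, 1032 and 614 CPM in colon CD31- Rspo3+ cells, against 196, 141 and 155 CPM in CD31- Rspo3- cells (2.44 ± 0.51, edgeR adjusted p = 0.00416). Small intestinal values were 568, 525 and 395 CPM in CD31- Rspo3+ cells, against 27.6, 29.7 and 30.6 CPM in CD31- Rspo3- cells (4.08 ± 0.55, edgeR adjusted p = 1.51e-05). No libraries overlapped, and both calls held under every alternative tried. Col14a1, which binds to collagen fibrils, had 2066, 2232 and 1388 CPM in small intestinal CD31- Rspo3+ cells, against 387, 295 and 302 CPM in CD31- Rspo3- cells (2.53 ± 0.55, edgeR adjusted p = 0.00161). In the colon it had 1727, 1697 and 1009 CPM in CD31- Rspo3+ cells, against 390, 431 and 317 CPM in CD31- Rspo3- cells (1.96 ± 0.54, edgeR adjusted p = 0.0271), a call lost without any 1 of 5 of the 6 libraries (edgeR adjusted p = 0.067 to 0.111; library 3 of CD31- Rspo3+ cells being the exception). Col4a3, a type IV chain best known from kidney and other specialised basement membranes, stayed low but rose in both tissues, with 13.1, 14.1 and 10.8 CPM in colon CD31- Rspo3+ cells, against 1.05, 2.20 and 2.77 CPM in CD31- Rspo3- cells (2.65 ± 0.62, edgeR adjusted p = 0.0101). Small intestinal levels were 8.48, 5.04 and 5.20 CPM in CD31- Rspo3+ cells, against 0.90, 2.56 and 0.59 CPM in CD31- Rspo3- cells (2.24 ± 0.62, edgeR adjusted p = 0.00973). Leaving out library 1 of colon CD31- Rspo3- cells (edgeR adjusted p = 0.0551) or library 3 of small intestinal CD31- Rspo3- cells (0.0595) ended the call of Col4a3 in that tissue.

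In both tissues, 8 members fell in Rspo3+ CD31- cells: Col6a4, Col6a5, Col9a2, Col12a1, Col20a1, Col22a1, Col24a1 and Col27a1, the last 2 being fibrillar. Col6a5, a further type VI chain, had 0.98, 1.25 and 1.07 CPM in colon CD31- Rspo3+ cells, against 14.3, 43.9 and 27.3 CPM in CD31- Rspo3- cells (-4.68 ± 0.76, edgeR adjusted p = 0.000568). Its small intestinal levels were 23.0, 29.4 and 16.2 CPM in CD31- Rspo3+ cells, against 107, 80.1 and 81.6 CPM in CD31- Rspo3- cells (-1.97 ± 0.65, edgeR adjusted p = 0.0263), a call lost without library 1 or 3 of either group (edgeR adjusted p = 0.052 to 0.0802). Col6a4 had 3.41, 4.07 and 3.41 CPM in colon CD31- Rspo3+ cells, against 31.1, 57.3 and 36.9 CPM in CD31- Rspo3- cells (-3.52 ± 0.66, edgeR adjusted p = 0.00178), and fell by 2.20 on the log2 scale in the small intestine (edgeR adjusted p = 0.0101). Col12a1, which binds to fibrils in tissues under load, had 113, 126 and 87.9 CPM in colon CD31- Rspo3+ cells, against 226, 529 and 398 CPM in CD31- Rspo3- cells (-1.82 ± 0.50, edgeR adjusted p = 0.0252). The colon call of Col12a1 was lost without library 2 or 3 of CD31- Rspo3- cells or any library of CD31- Rspo3+ cells (edgeR adjusted p = 0.0578 to 0.0972), while the small intestinal fall (-1.84 ± 0.50, edgeR adjusted p = 0.00805) held under every alternative. Col20a1, fibril-associated, had 2.73, 1.31 and 4.49 CPM in colon CD31- Rspo3+ cells, against 31.5, 24.1 and 16.4 CPM in CD31- Rspo3- cells (-3.07 ± 0.66, edgeR adjusted p = 0.00503).

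Falls of 6 further members passed in the colon: the basement membrane genes Col4a5, Col4a6, Col15a1 and Col18a1, and Col23a1 and Col28a1. The call of Col23a1 (edgeR adjusted p = 0.0119) was lost with only the groups compared (edgeR adjusted p = 0.0881) and without library 1 of CD31- Rspo3- cells (0.0704). Col4a5 had 46.5, 31.8 and 26.6 CPM in colon CD31- Rspo3+ cells, against 143, 212 and 164 CPM in CD31- Rspo3- cells (-2.31 ± 0.52, edgeR adjusted p = 0.00765). Its small intestinal levels were 61.0, 74.2 and 45.6 CPM in CD31- Rspo3+ cells, against 41.0, 26.4 and 20.8 CPM in CD31- Rspo3- cells, the opposite order without passing (1.03 ± 0.50, edgeR adjusted p = 0.133), and the tissues differed (-3.34 ± 0.72, edgeR adjusted p = 0.00664). Col15a1 had 17.9, 21.6 and 22.3 CPM in colon CD31- Rspo3+ cells, against 47.8, 96.7 and 74.9 CPM in CD31- Rspo3- cells (-1.83 ± 0.32, edgeR adjusted p = 0.000999). The small intestine gave 88.8, 70.0 and 69.1 CPM in CD31- Rspo3+ cells, against 61.0, 40.3 and 50.5 CPM in CD31- Rspo3- cells (0.58 ± 0.31, edgeR adjusted p = 0.167), and here too the tissues differed (-2.41 ± 0.44, edgeR adjusted p = 0.00197). Col13a1 was the only other member whose difference between the tissues passed (-2.32 ± 0.59, edgeR adjusted p = 0.0178), so that 3 of 42 members passed, against 8.38% of all genes. Without library 2 of colon CD31- Rspo3- cells that of Col13a1 was lost (edgeR adjusted p = 0.0552). Col18a1 had 176, 168 and 140 CPM in colon CD31- Rspo3+ cells, against 461, 665 and 368 CPM in CD31- Rspo3- cells (-1.63 ± 0.31, edgeR adjusted p = 0.00211). Its small intestinal values of 327, 340 and 212 CPM in CD31- Rspo3+ cells lay below the 583, 450 and 386 CPM of CD31- Rspo3- cells without passing (-0.69 ± 0.30, edgeR adjusted p = 0.0945).

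Markers of other cells moved with these comparisons. In the small intestine 7 of 8 fibroblast markers rose in CD31- Rspo3+ cells (summed 52060 to 60913 CPM, against 7556 to 10491 CPM in CD31- Rspo3- cells), 6 of 6 epithelial markers fell (54.3 to 166 CPM, against 4848 to 8011 CPM), and 5 of 5 mesothelial markers fell (1.01 to 19.2 CPM, against 243 to 507 CPM, with Wt1 and Lrrn4 at 0 in Rspo3+ cells). In the colon 0 of 8 fibroblast markers passed in edgeR, with 6 at an unadjusted p under 0.05 (summed 21879 to 41787 CPM, against 11209 to 13461 CPM), 6 of 6 smooth muscle markers fell (504 to 767 CPM, against 3010 to 4366 CPM) and 5 of 6 markers of Pdgfra-high subepithelial fibroblasts fell (313 to 372 CPM, against 932 to 1053 CPM). Enteric glia markers fell in both tissues, 5 of 6 in each. The 6 markers of Pdgfra-low Grem1+ fibroblasts summed to 6666 to 11737 CPM in colon CD31- Rspo3+ cells, against 1517 to 1989 CPM in CD31- Rspo3- cells. Their small intestinal sums were 7788 to 10311 CPM, against 981 to 1223 CPM. Pericyte markers summed to 193 to 254 CPM in colon CD31- Rspo3+ cells, against 434 to 712 CPM in CD31- Rspo3- cells. Their sums overlapped in the small intestine. In the colon the immune markers, of which 3 of 6 rose, summed to 1028 to 25133 CPM in CD31- Rspo3+ cells, against 982 to 2544 CPM in CD31- Rspo3- cells. Only 1 CD31- Rspo3+ library lay above the CD31- Rspo3- range, and the median was 1269 CPM. Ptprc, 1 of these markers, had 72.8 CPM in library 3, against 3.71 and 2.76 CPM in its fellows. The part of all these cell types in the collagen results was not tested. Without library 3 of colon CD31- Rspo3+ cells, 3 members still rose in the colon and 11 fell. The count that rose was 1 without library 1 of CD31- Rspo3- cells, and the count that fell was 9 and 8 without libraries 1 and 2 of CD31- Rspo3+ cells.

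Among CD31+ cells, Rspo3+ against Rspo3- libraries set lymphatic against blood endothelial profiles. All 7 lymphatic markers were higher in Rspo3+ cells in both tissues, with sums of 39947 to 50696 CPM against 1911 to 2410 CPM in Rspo3- cells of the colon and 29914 to 33976 CPM against 3113 to 6002 CPM in the small intestine. Blood endothelial markers were lower, 8 of 8 in the colon (497 to 887 CPM against 16112 to 20943 CPM) and 7 of 8 in the small intestine (238 to 308 CPM against 13221 to 15713 CPM). Of the 42 members, 3 rose and 8 fell in the colon (23.1% of all genes were called, 9.52% higher and 13.6% lower), and for the small intestine 3 rose and 7 fell (20.1%, 9.23% and 10.8%). These shares, 26.2% and 23.8%, are close to those of all genes. Without library 3 of colon CD31+ Rspo3- cells, 5 members rose and 6 fell in the colon, and without library 1 of colon CD31+ Rspo3+ cells 2 rose and 6 fell.

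Col23a1 and Col18a1 rose in CD31+ Rspo3+ cells of both tissues. Col23a1, a transmembrane collagen, had 373, 370 and 388 CPM in colon CD31+ Rspo3+ cells, against 20.7, 20.6 and 24.6 CPM in CD31+ Rspo3- cells (4.10 ± 0.26, edgeR adjusted p = 2.27e-09). The small intestinal values were 1204, 1128 and 955 CPM in CD31+ Rspo3+ cells, against 73.8, 66.3 and 100 CPM in CD31+ Rspo3- cells (3.77 ± 0.26, edgeR adjusted p = 3.41e-09). Every CD31+ Rspo3+ library lay above all 18 other libraries, whose highest value was 100 CPM. Col18a1 had 1060, 941 and 1358 CPM in colon CD31+ Rspo3+ cells, against 164, 141 and 237 CPM in CD31+ Rspo3- cells (2.63 ± 0.32, edgeR adjusted p = 4.38e-06). Its small intestinal values were 445, 472 and 308 CPM in CD31+ Rspo3+ cells, against 184, 74.3 and 165 CPM in CD31+ Rspo3- cells (1.53 ± 0.31, edgeR adjusted p = 0.00113). No libraries overlapped, and the calls of both genes held under every alternative. Col18a1 shares its locus with Slc19a1 on the opposite strand, and because the library chemistry does not mark strand their reads may be mixed where they overlap.

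Col13a1 and Col15a1 went the other way. Col13a1, a transmembrane collagen of cell adhesion sites, had 9.44, 5.11 and 6.34 CPM in colon CD31+ Rspo3+ cells, against 243, 229 and 187 CPM in CD31+ Rspo3- cells (-4.98 ± 0.46, edgeR adjusted p = 1.26e-07). The small intestine gave 0.92, 0.92 and 3.91 CPM in CD31+ Rspo3+ cells, against 119, 65.7 and 90.2 CPM in CD31+ Rspo3- cells (-5.73 ± 0.49, edgeR adjusted p = 5.47e-08). Its order over the 8 groups began with colon and small intestinal CD31+ Rspo3- cells, and all 6 of these libraries lay above the other 18. Col15a1, which links basement membranes to the fibrils beneath them, had 4.93, 5.63 and 5.36 CPM in colon CD31+ Rspo3+ cells, against 68.3, 75.3 and 80.1 CPM in CD31+ Rspo3- cells (-3.81 ± 0.35, edgeR adjusted p = 1.29e-07). Small intestinal libraries gave 3.40, 2.45 and 0.71 CPM in CD31+ Rspo3+ cells, against 74.8, 41.9 and 42.3 CPM in CD31+ Rspo3- cells (-4.51 ± 0.37, edgeR adjusted p = 2.9e-08). All 4 calls held under every alternative. Col4a3 fell as well, by 3.38 on the log2 scale in the colon (edgeR adjusted p = 0.000631) and by 3.33 in the small intestine (edgeR adjusted p = 0.0012), with 1.11 ± 0.50 CPM in colon CD31+ Rspo3+ cells against 11.6 ± 0.62 CPM in CD31+ Rspo3- cells and 0.55 ± 0.45 CPM against 5.32 ± 2.91 CPM in the small intestine (SD, n = 3).

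**Figure D3:**
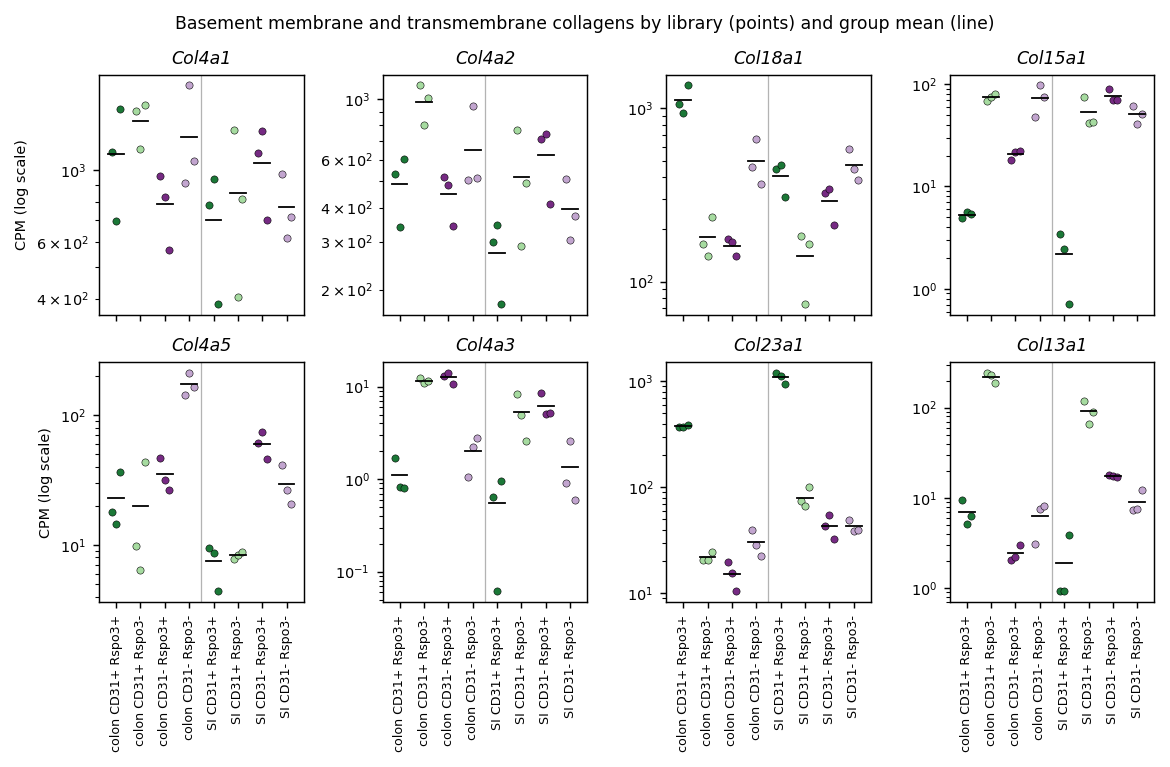
CPM (log scale) of 6 basement membrane and 2 transmembrane collagens in the 8 groups (SI, small intestine), 1 point per library, with lines at the group means. Col23a1 and Col18a1 are highest in colon or small intestinal CD31+ Rspo3+ cells, and Col13a1 is highest in CD31+ Rspo3- cells. The Col4a1 points overlap between groups that are neighbours in the order of means.

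Other members also differed in CD31+ Rspo3+ cells. Col8a1 fell in the small intestine, with 5.83, 6.87 and 4.62 CPM in CD31+ Rspo3+ cells, against 38.3, 13.5 and 28.7 CPM in CD31+ Rspo3- cells (-2.20 ± 0.53, edgeR adjusted p = 0.00448, and 0.0591 by limma voom). In the colon its libraries overlapped (-0.37 ± 0.49, edgeR adjusted p = 0.642), and without library 1 of CD31+ Rspo3+ cells, the highest of that group for Col8a1, the fall passed (-1.40, edgeR adjusted p = 0.0284). Col4a2 fell in the colon, with 530, 339 and 600 CPM in CD31+ Rspo3+ cells, against 1122, 804 and 1008 CPM in CD31+ Rspo3- cells (-1.0 ± 0.36, edgeR adjusted p = 0.0486), a call that the removal of any 1 of the 6 libraries ended (edgeR adjusted p = 0.0542 to 0.193). Col28a1, known mostly from peripheral nerve, was at 0 in all 3 small intestinal CD31+ Rspo3+ libraries and had 121 counts in CD31+ Rspo3- cells, at least 43.2-fold lower when 3 counts over the group are taken as the floor. Its fall passed in the colon as well (-3.01 ± 0.73, edgeR adjusted p = 0.00571). Col5a3, a type V chain, rose in the small intestine with 20, 22 and 8.06 CPM in CD31+ Rspo3+ cells, against 7.91, 2.77 and 4.57 CPM in CD31+ Rspo3- cells (1.72 ± 0.52, edgeR adjusted p = 0.0224), a call lost without library 1 or 2 of CD31+ Rspo3+ cells or library 2 or 3 of CD31+ Rspo3- cells (edgeR adjusted p = 0.0659 to 0.102). Col14a1 had 82.2, 103 and 83.6 CPM in small intestinal CD31+ Rspo3+ cells, against 28.9, 28.6 and 35 CPM in CD31+ Rspo3- cells, without overlap and without passing (1.54 ± 0.54, edgeR adjusted p = 0.0504). Markers of pericytes and smooth muscle moved with the blood endothelial ones: 6 of 7 pericyte markers fell in the colon (summed 118 to 130 CPM, against 509 to 863 CPM) with 1 higher, and 5 of 7 in the small intestine with 2 higher, where their sums overlapped (363 to 453 CPM, against 315 to 471 CPM). Smooth muscle markers fell, 6 of 6 in the colon (147 to 256 CPM, against 617 to 1064 CPM) and 5 of 6 in the small intestine (111 to 229 CPM, against 546 to 1179 CPM). Their part in the falls of collagen genes was not tested.

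The Rspo3 difference itself was then compared between the gates. Averaged over the tissues, the CD31+ difference minus the CD31- difference passed for 16 of 42 members, of which 12 reached 10 CPM in some group. The members' share, 38.1%, was not far above the 30.2% of all genes. Col23a1 (4.42 ± 0.24, edgeR adjusted p = 1.15e-10) and Col18a1 (3.24 ± 0.31, edgeR adjusted p = 1.24e-07) had the more positive difference in CD31+ cells, and both fell in colon CD31- Rspo3+ cells. Col13a1 (-5.15 ± 0.43, edgeR adjusted p = 1.93e-08), Col15a1 (-3.54 ± 0.33, edgeR adjusted p = 6.93e-08), Col4a3 (-5.80 ± 0.64, edgeR adjusted p = 8.49e-07) and Col8a1 (-4.55 ± 0.51, edgeR adjusted p = 1.02e-06) went the other way. In the small intestine Col4a3 and Col8a1 were higher in Rspo3+ than in Rspo3- cells within CD31- cells, and lower within CD31+ cells. Col4a3 had the same opposite calls in the colon. The comparison of this difference between the tissues within CD31+ cells passed for 0 of 42 members by edgeR (1.93% of all genes; 5 members at an unadjusted p under 0.05) and for 2 by DESeq2. It passed for 1 without library 1 of small intestinal CD31+ Rspo3+ cells or library 3 of colon CD31+ Rspo3- cells.

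**Figure D4:**
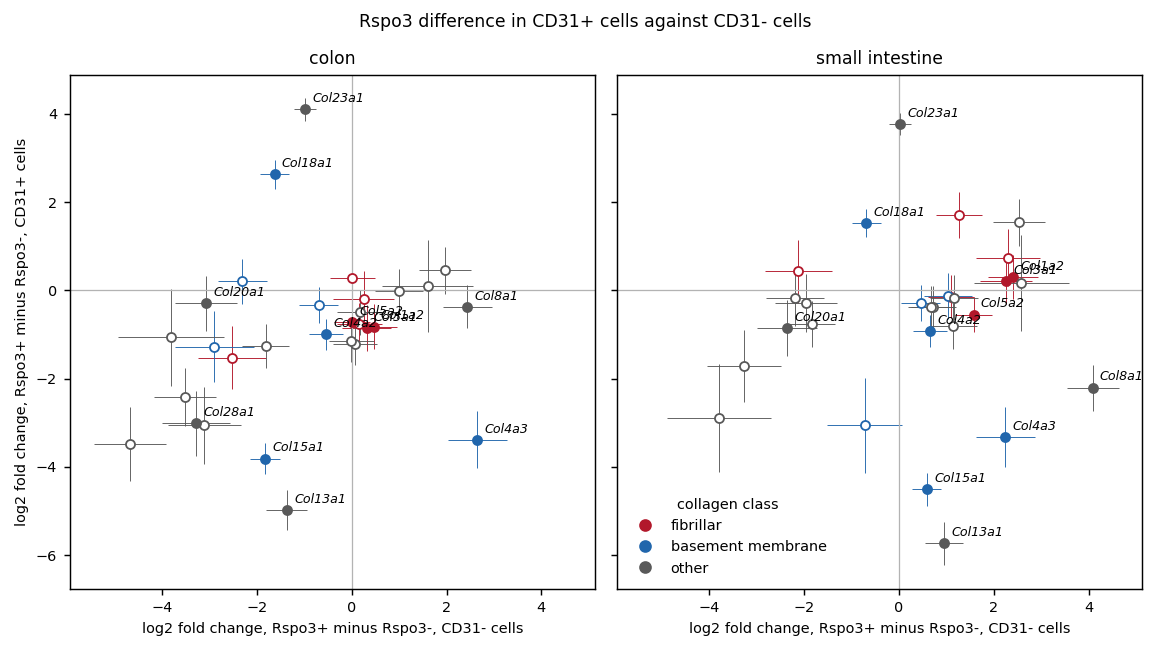
Log2 fold change of Rspo3+ against Rspo3- cells in CD31+ cells (vertical) against that in CD31- cells (horizontal) for members with at least 10 CPM in some group and more than 3 counts in each group, bars showing SE. Filled and named points passed the test of the difference between the gates over both tissues. Col23a1 and Col18a1 lie high, and Col13a1, Col15a1 and Col4a3 lie low in both tissues.

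Colon and small intestine were then compared within each population. In CD31+ Rspo3+ cells 7 members were higher in the colon and 2 lower (6.35% of all genes, 2.83% and 3.52%), in CD31+ Rspo3- cells 5 and 1 (4.43%, 2.72% and 1.71%), in CD31- Rspo3+ cells 1 and 4 (7.02%, 3.62% and 3.40%), and in CD31- Rspo3- cells 6 and 0 (17.6%, 8.79% and 8.81%). For the count of 0, 2 members lay below 0 at an unadjusted p under 0.05 and DESeq2 called 1. Col23a1 was lower in the colon in 3 of the 4 populations, with -1.54 ± 0.24 (edgeR adjusted p = 0.00031) in CD31+ Rspo3+ cells, -1.87 ± 0.24 (edgeR adjusted p = 0.000121) in CD31+ Rspo3- cells and -1.50 ± 0.24 (edgeR adjusted p = 0.000572) in CD31- Rspo3+ cells. Col18a1 was higher in colon than in small intestinal CD31+ Rspo3+ cells (1.46 ± 0.31, edgeR adjusted p = 0.00616). In CD31- Rspo3- cells the colon had more Col8a1 (2.48 ± 0.51, edgeR adjusted p = 0.00186), Col4a5 (2.55 ± 0.53, edgeR adjusted p = 0.00186) and Col28a1, with 22.3, 22 and 13.0 CPM in the colon against 2.08, 1.16 and 2.59 CPM in the small intestine (3.28 ± 0.72, edgeR adjusted p = 0.00365). Smooth muscle markers were higher there too, 5 of 6 (summed 3010 to 4366 CPM, against 1325 to 2037 CPM), and their part was not tested. Single libraries moved these counts. In CD31+ Rspo3+ cells 4 members were higher in the colon without library 1 or 3 of either tissue (Col8a1 lost without library 1 of the colon, edgeR adjusted p = 0.0775) and 3 without library 2 of the small intestine. In CD31- Rspo3+ cells, where the 1 member was Col12a1, 0 were higher without library 1, 2 or 3 of the small intestine or library 1 of the colon (edgeR adjusted p of Col12a1 0.0506 to 0.0849). In CD31- Rspo3- cells 3 were higher without library 2 of either tissue, and 1 was lower without library 1 of the colon.

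The colon calls of Col1a2, Col3a1 and Col12a1 in CD31+ Rspo3- cells rested on library 3. Col3a1 had 563, 821 and 3968 CPM in colon CD31+ Rspo3- cells, against 530, 382 and 386 CPM in small intestinal ones (2.04 ± 0.54, edgeR adjusted p = 0.0336), and 0.429 without that library. The count of members higher in the colon fell to 1 without it. It was 3, 1 and 2 without libraries 1, 2 and 3 of small intestinal CD31+ Rspo3- cells, and 9 without library 1 of colon CD31+ Rspo3- cells. The count lower in the colon was 2 without library 3 of colon cells.

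**Figure D5:**
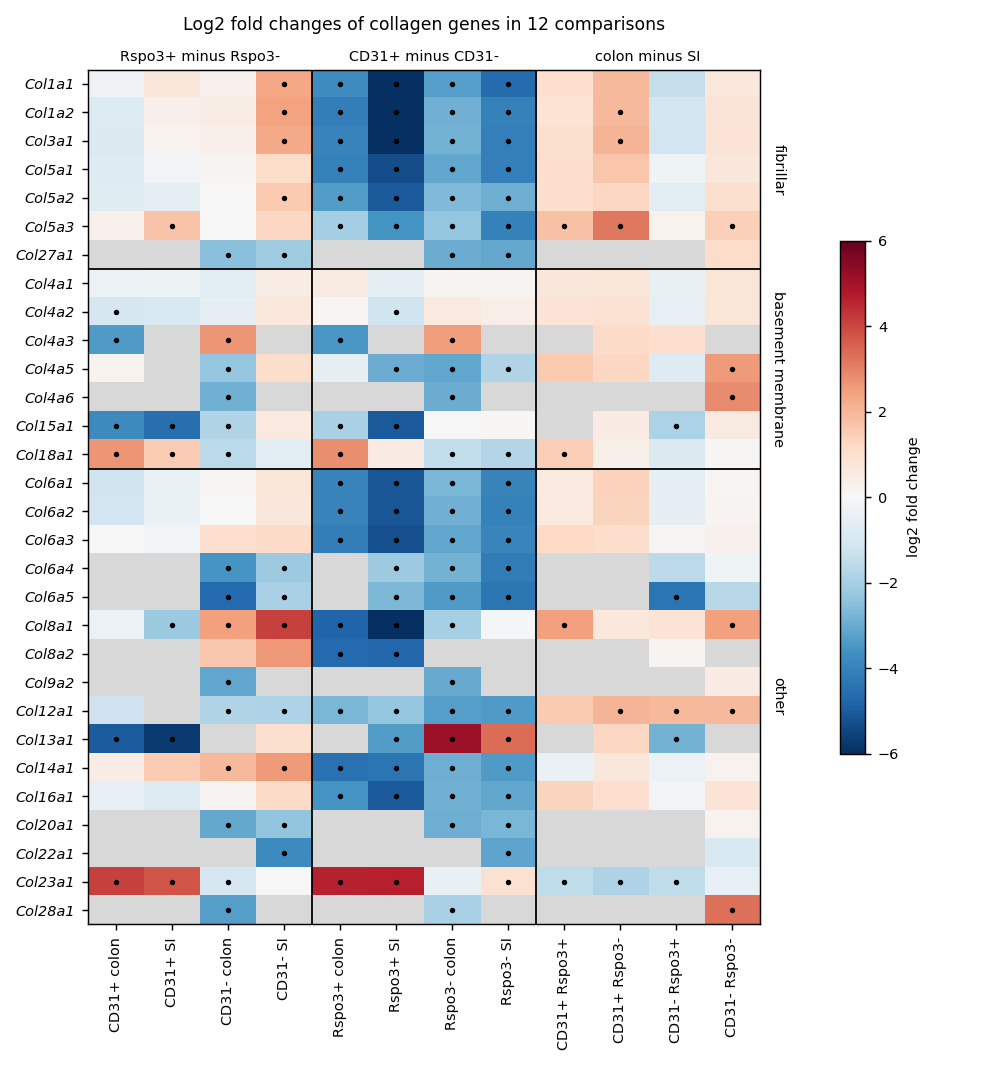
Log2 fold changes of the 30 members with at least 10 CPM in some group, by class (rows) in the 12 pairwise comparisons (columns, named by the population in which the comparison was made), from blue (lower in the first-named group) to red (higher). Dots mark edgeR adjusted p under 0.05, and grey marks comparisons in which no group reached 10 CPM or 1 group had at most 3 counts. The columns of CD31+ against CD31- cells are blue for types I, III, V and VI and pale for Col4a1.

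Genes that build and handle collagen were followed in the Rspo3 comparisons, in which 16.1% of all genes rose in small intestinal and 4.80% in colon CD31- Rspo3+ cells. Of 15 genes of hydroxylases and glycosyltransferases, which modify collagen chains in the endoplasmic reticulum, 11 rose and 2 fell in small intestinal CD31- Rspo3+ cells (median 1.25, against 0.11 for all genes), and 5 rose and 1 fell in the colon. Plod3, a lysyl hydroxylase, had 142 ± 9.89 CPM in small intestinal CD31- Rspo3+ cells and 52.8 ± 5.73 CPM in CD31- Rspo3- cells (1.42, edgeR adjusted p = 1e-06). P3h2, a prolyl 3-hydroxylase that acts on type IV collagen, fell in both tissues, and in the colon it averaged 7.18 ± 1.91 CPM in CD31- Rspo3+ cells and 66.1 ± 9.61 CPM in CD31- Rspo3- cells (-3.20, edgeR adjusted p = 1.98e-08). Of 8 chaperone and export genes 4 were higher and 1 was lower in small intestinal CD31- Rspo3+ cells, Fkbp14 among the higher ones (1.83, edgeR adjusted p = 2.59e-06), and 0 passed in edgeR in the colon. Fkbp14 had the smallest p of that list in the colon (0.49, edgeR adjusted p = 0.145), and 1 of the 8 had an unadjusted p under 0.05.

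For propeptide processing 5 of 8 genes rose in small intestinal and 2 of 8 in colon CD31- Rspo3+ cells. Pcolce2, an enhancer of the protease that trims fibrillar procollagens, averaged 585 ± 173 CPM in colon CD31- Rspo3+ cells and 80.5 ± 20.5 CPM in CD31- Rspo3- cells (2.86, edgeR adjusted p = 0.00371), with 3.82 in the small intestine (edgeR adjusted p = 9.81e-05). Lox, which cross-links fibrils, averaged 513 ± 44.3 CPM in small intestinal CD31- Rspo3+ cells and 64.0 ± 4.54 CPM in CD31- Rspo3- cells (3.00, edgeR adjusted p = 4.48e-05), 1 of 3 cross-linking genes of 7 that rose there. In CD31+ cells Lox fell in Rspo3+ cells while Loxl2 rose, in the small intestine by -3.55 (edgeR adjusted p = 1.44e-05) and 2.50 (edgeR adjusted p = 0.000148). Of 10 proteins that bind fibrils, 6 rose in small intestinal CD31- Rspo3+ cells and 1 in the colon, and Prelp, a proteoglycan that anchors basement membranes to connective tissue, was the leading riser in CD31+ Rspo3+ cells, with 1906 ± 157 CPM in the colon against 228 ± 98.2 CPM in CD31+ Rspo3- cells (3.07, edgeR adjusted p = 7.5e-08). Among collagen receptors Adgrg1, a receptor for type III collagen, was lower in CD31+ Rspo3+ cells, with 32.8 ± 5.94 CPM in the colon against 447 ± 88.3 CPM in CD31+ Rspo3- cells (-3.77, edgeR adjusted p = 6.63e-07).

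The remaining members were scarce. In no group did 14 members average 10 CPM: Col2a1, Col4a4, Col6a6, Col7a1, Col9a1, Col9a3, Col10a1, Col11a1, Col11a2, Col17a1, Col19a1, Col24a1, Col25a1 and Col26a1. Col2a1, the collagen of cartilage, had 6 counts over all libraries and Col10a1, of growth-plate cartilage, had 21, and neither was tested. Col24a1, with 8.27 CPM on average in colon CD31- Rspo3- cells, was the highest of the 14. The spans of Col9a3 and Tcfl5 and of Col10a1 and Nt5dc1 overlap on opposite strands, so their low counts may be shared.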

How the data were processed

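RNA from 24 libraries in 8 groups of 3 was extracted with a Qiagen RNeasy kit and made into libraries with SMART-Seq v4, per the labels' protocols. Reads were quantified by the authors with Salmon 1.3.0 and R 4.0.1 on mm10, per the submitters' processing notes. The deposited tables hold estimated counts per gene and log2 values, taken here as log2(TPM + 1), from which TPM was recovered. The members and all gene lists were chosen with earlier results of these data known.

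Estimated counts were rounded to whole numbers. Of 54418 gene identifiers, 54166 (99.5%) matched GENCODE M21, the source of the symbols. In R 4.3.3, edgeR 4.0.16 fitted all 24 libraries in 1 model with TMM scaling and a quasi-likelihood F test. It kept 19050 genes with a minimum count of 10 and a minimum total of 15, and p-values were adjusted by Benjamini-Hochberg over all of them. The model gave 12 pairwise and 3 interaction contrasts. The common biological coefficient of variation was 0.429. Alternatives were DESeq2 size factors in edgeR, no filter, DESeq2 1.42.0, limma 3.58.1 (voom and log2 TPM with pseudocounts 1 and 0.1), only the groups compared, and each library left out. Tested on simulated data with 200 genes changed, the 4 Rspo3 comparisons recovered 23.0 to 31.0% of 2-fold and 62.0 to 70.0% of 4-fold changes, with 0.00 to 4.49% false calls.

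Values per library are given for 11 members of a set list and for others among the 3 smallest adjusted p of a comparison with at least 10 CPM. Other members with values were chosen after these were seen. From each pathway list, genes with the smallest adjusted p in the Rspo3 comparisons are named. Library numbers only name the libraries of a group, in the order of the table's columns.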

Additional observations from a re-analysis of the deposited data

Results flagged for a closer look

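The Rspo3 difference in CD31- cells differed between colon and small intestine for 3 collagen genes in edgeR's interaction test: Col15a1 (adjusted p = 0.00197), Col4a5 (adjusted p = 0.00664) and Col13a1 (adjusted p = 0.0178). Their share of the 42 members tested, 7.1%, was near the 8.38% of all genes.

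Between CD31+ and CD31- cells, over both tissues, the Rspo3 difference differed in edgeR's interaction test for 16 of 42 members. That share was 38.1%, against 30.2% of all genes, and 12 of the 16 had at least 10 CPM in some group. Among the 12, the Rspo3 difference was more positive in CD31+ cells for Col23a1 (adjusted p = 1.15e-10), Col18a1 (adjusted p = 1.24e-07) and Col20a1 (adjusted p = 0.0129). It was more negative in CD31+ cells for Col13a1 (adjusted p = 1.93e-08), Col15a1 (adjusted p = 6.93e-08), Col4a3 (adjusted p = 8.49e-07), Col8a1 (adjusted p = 1.02e-06), Col5a2 (adjusted p = 0.00818), Col28a1 (adjusted p = 0.00838), Col1a2 (adjusted p = 0.0144), Col3a1 (adjusted p = 0.0246) and Col4a2 (adjusted p = 0.0349). The call of Col3a1 was lost without library 1 of small intestinal CD31+ Rspo3-, library 1 of colon CD31- Rspo3-, library 2 of colon CD31- Rspo3+ or library 3 of colon CD31+ Rspo3- cells (edgeR adjusted p = 0.05 to 0.07). That of Col4a2 was lost on leaving out any 1 of 15 libraries (edgeR adjusted p = 0.0528 to 0.0944).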

How the results depend on the processing

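Of 353 recomputed counts of members, 305 stayed close to the reported value and 48 moved. Fibrillar shares were recomputed apart from these counts, and those that moved are given below. Of 2304 recomputed values for 159 results on single genes, 2142 kept their direction and side of the threshold, 158 lost the call and 2 gained it, and 2 reversed. Both reversals were of Col28a1 in limma on log2(TPM + 1): -0.28 for the tissue difference in CD31+ cells and 0.12 for the difference between gates. Where a value moved, the cause was not tested. For Rspo3 in small intestinal CD31- cells, higher members numbered 13 with voom and 16 with only the groups compared. For Rspo3 in colon CD31+ cells, limma on log2(TPM + 1) gave 5 lower. For colon against small intestine in CD31- Rspo3- cells, higher members numbered 10 in limma on log2(TPM + 1) and 12 with only the groups compared, and lower ones 1 with DESeq2, voom or limma on log2(TPM + 1) and 2 with only the groups compared. In CD31+ Rspo3- cells, higher members numbered 8 without a filter, 11 with DESeq2, 2 with voom, 1 in limma on log2(TPM + 1) and 2 with only the groups compared, and that limma fit gave 2 lower. In CD31+ Rspo3+ cells, voom and limma on log2(TPM + 1) each gave 2 higher and 1 lower. The tissue difference in CD31- cells passed for 7 members with DESeq2, 5 with voom, 9 in limma on log2(TPM + 1) and 10 with only the groups compared, and that in CD31+ cells for 2 with DESeq2. With CPM in place of TPM, fibrillar shares were 82.9% and 65.0% in small intestinal and 73.5% and 71.2% in colon CD31- Rspo3+ and CD31- Rspo3- cells. Leaving out 1 library at a time, Rspo3 counts ran from 5 to 7 higher and 6 to 8 lower (small intestinal CD31-), 1 to 3 and 8 to 12 (colon CD31-), 2 to 3 and 5 to 8 (small intestinal CD31+) and 2 to 5 and 6 to 10 (colon CD31+). Colon against small intestine ran from 3 to 5 higher and 0 to 1 lower (CD31- Rspo3-), 0 to 1 and 4 to 4 (CD31- Rspo3+), 1 to 9 and 1 to 2 (CD31+ Rspo3-) and 3 to 6 and 2 to 2 (CD31+ Rspo3+). The tissue differences passed for 2 to 4 (CD31-) and 0 to 1 (CD31+) members, and the difference between gates for 13 to 22. The fibrillar share of colon CD31+ Rspo3- cells ran from 25.6 to 42.0%. No paired analysis was possible because the tables' columns carry no replicate number of the labels. With 3 libraries a group, changes near 2-fold were often missed in simulated data. Those data had 200 genes changed, whereas 1741 to 5796 genes were called in the Rspo3 comparisons. The share recovered may therefore differ in the real data.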
